A study of Mus musculus with 9 samples.

Results

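The 41 genes described here encode factors that build ribosomes, make nucleotides, start translation or drive growth, and they are commonly grouped as targets of the transcription factor Myc. They were taken by symbol from the rows of a raw count table with 55418 gene symbols, and all 41 were among the 15914 genes that passed the filter on low counts. The study silenced Eya3, a transcriptional coactivator with a tyrosine phosphatase domain, in 66cl4 cells, a line from mouse mammary tumours labelled as triple negative (lacking hormone receptors and Her2 amplification). The 3 groups were sequenced as bulk messenger RNA, with 3 libraries in each: cells with a scrambled short hairpin RNA (SCR), cells with a first hairpin against Eya3 (shEya3_KD1) and cells with another (shEya3_KD2). All groups were transduced cultures under puromycin selection in medium with calf serum, so the vector and the drug were shared by the controls. The model is limited to 1 cell line with 1 hairpin per group, and how the cultures of biological replicates were kept apart is not described in the labels. The p-values therefore measure the scatter of these libraries, which may be partly technical.

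Ribosome production starts in the nucleolus, where RNA polymerase I copies the ribosomal RNA genes. Small nucleolar ribonucleoproteins (snoRNPs) modify that transcript, and the small subunit processome and a series of large subunit assembly factors fold and cut it into the subunits. Myc, bound with its partner Max to E-box DNA with the letters CACGTG, is known to activate many of these genes together with those of purine and pyrimidine synthesis, which supply the bases for the new RNA.

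Library totals ranged from 27758862 counts in shEya3_KD2 replicate 2 to 52691960 in shEya3_KD2 replicate 1. The members took 1.29% to 1.5% of the counts, and the lowest count of any member in any library was 1106 reads for Nme1, so counting error was small for all of them. Levels are counts scaled with TMM factors to a common library size (CPM), which are shares of a library and not amounts per cell. In bulk RNA, fewer cells of a type and less RNA per cell cannot be told apart. Eya3 itself was 72.9 ± 5.56 CPM (SD, n = 3) in SCR, 23.1 ± 1.71 with shEya3_KD1 and 37.5 ± 3.02 with shEya3_KD2. Its log2 fold changes against SCR were -1.66 ± 0.08 and -0.96 ± 0.08 (fitted value ± SE). The markers of the line's label were mixed and moved with the groups: Pgr and Epcam had no counts, Cdh1 did not exceed 0.259 CPM, and Krt8, a keratin of simple epithelium, was 679 ± 20.8 CPM in SCR, 1315 ± 81.6 with shEya3_KD1 and 792 ± 53.4 with shEya3_KD2. Esr1, the oestrogen receptor, was 7.12 ± 0.294, 14.8 ± 0.852 and 16.0 ± 4.7 CPM, and Erbb2, which encodes Her2, was 53.6 ± 1.95, 65.4 ± 6.62 and 67.1 ± 4.15 CPM, so both were measured and were called higher with both hairpins. The 10 epithelial and mammary markers summed to 721 to 756 CPM in SCR, 1299 to 1449 with shEya3_KD1 and 840.2 to 953 with shEya3_KD2. Of the 7 tested, 5 were called higher and 2, Krt14 and Cldn4, lower with shEya3_KD1. With shEya3_KD2 5 were called higher and 0 lower. Krt14 was 1.32 CPM in SCR, 0.561 with shEya3_KD1 and 11.8 with shEya3_KD2. Of 8 macrophage and leukocyte markers, 6 stayed below 1 CPM in every library, and C1qa and C1qc had no counts. Their sum, almost wholly Lyz2 and Cd68, was 47.2 to 50.7 CPM in SCR, 26.8 to 31.7 with shEya3_KD1 and 21.2 to 27.3 with shEya3_KD2, and both genes were part of the shift. Lyz2 was 38.6 CPM in SCR, 25.1 with shEya3_KD1 and 11.1 with shEya3_KD2, called lower with both hairpins, while Cd68 was 9.64, 3.54 and 12.1 CPM, called lower with shEya3_KD1 and higher with shEya3_KD2. The 7 fibroblast markers summed to 28.9 to 36.0 CPM in SCR, 53.7 to 58.7 with shEya3_KD1 and 30.9 to 45.3 with shEya3_KD2. With shEya3_KD1, Pdgfra rose from 27.99 to 37.9 CPM, Pdgfrb from 0.605 to 11.8 and Col1a2 from 0.0847 to 4.53. Pdgfrb was called higher with shEya3_KD2 as well, at 2.77 CPM, while Pdgfra and Col1a2 were not called there. Col1a1 of that list went the other way and was called lower with both hairpins. Its log2 fold changes were -1.484 with shEya3_KD1 and -0.602 with shEya3_KD2. The 5 endothelial markers summed to at most 4.35 CPM in any library, with Cdh5 at 3.72 CPM in SCR, 0.264 with shEya3_KD1 and 2.13 with shEya3_KD2. Vwf of the same list went the other way with shEya3_KD1, from 0.205 to 0.632 CPM, and was called higher there. The 6 lymphocyte markers summed to at most 1.19 CPM, and Cd8a had no counts. The part of these shifts in the results on the members was not tested.

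Knockdown of Eya3 was followed by small and mixed changes in these genes. With shEya3_KD1, 5 of the 41 were higher and 9 lower than in SCR by edgeR's quasi-likelihood test at a Benjamini-Hochberg adjusted p of 0.05. Over all genes tested, 24.1% were higher and 26.2% lower, 50.3% in either direction, so the members' share of 34.1% was no larger than the background. With shEya3_KD2, 5 members were higher and 15 lower, 48.8% in all, beside 23.0% higher, 22.3% lower and 45.3% in either direction over all genes. Both comparisons share the SCR libraries and are therefore not independent. For all 14 members called with shEya3_KD1 and all 20 called with shEya3_KD2, the libraries of the compared groups did not overlap. Counting members that were not called as well, 8 were above and 12 below SCR without overlap with shEya3_KD1, and 5 above and 18 below with shEya3_KD2. Among all genes tested these shares were 28.9% and 30.4%, and 27.4% and 27.02%. The count of 5 higher with shEya3_KD1 became 8 without shEya3_KD2 replicate 2. The count of 5 higher with shEya3_KD2 became 1 without SCR replicate 2 or shEya3_KD2 replicate 1, and 3 without SCR replicate 1, SCR replicate 3, shEya3_KD1 replicate 2 or shEya3_KD2 replicate 2.

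The sizes of these changes were modest. The median log2 fold change of the members was -0.04 with shEya3_KD1, where single members ran from -0.64 to 0.59, and -0.08 with shEya3_KD2, where they ran from -0.54 to 0.42. The medians over all genes tested were 0.01 and -0.00. Of the members, 2 passed a 1.5-fold change with shEya3_KD1 and 0 with shEya3_KD2, beside 28% and 21.3% of all genes. No member passed 2-fold in either comparison, a size that 15.0% and 9.91% of all genes passed. The members are abundant. Among the 3681 genes at least as high in SCR as the lowest member, 13.0% and 8.86% passed 1.5-fold. Of those 3681 genes 50% were called with shEya3_KD1 and 53.3% with shEya3_KD2, with medians of -0.00 and 0.01. By library, the members' median log2 distance from the SCR mean was 0.05, -0.06 and 0.01 in SCR replicates 1 to 3, -0.04, -0.00 and -0.03 with shEya3_KD1, and -0.03, -0.19 and -0.12 with shEya3_KD2. The lowest value belonged to shEya3_KD2 replicate 2, the shallowest library, and shEya3_KD2 replicate 1 lay within the range of the SCR libraries.

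**Figure D1:**
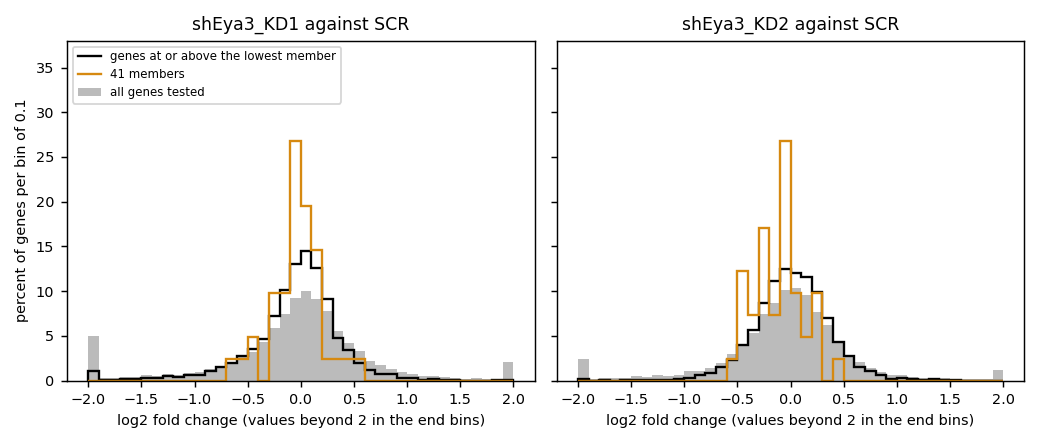
Distribution of log2 fold changes (x axis) as the percentage of genes per bin of 0.1 (y axis) for the 41 members (orange line), the 3681 genes at least as high in SCR as the lowest member (black line) and all 15914 genes tested (grey bars), for each hairpin against SCR. The members stay between -0.64 and 0.59, while the grey bars reach the end bins.

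In SCR the members ranged from 63.9 CPM for Nme1 to 1867 CPM for Npm1, with a median of 209 CPM beside 17.3 CPM over all genes tested. The lowest member stood at the 76.9 percentile of all genes. Per kilobase of merged exons, Npm1 was again highest at 701 ± 27.9 CPM per kb (SD, n = 3), followed by Hspd1 at 288 ± 6.73 and Eif4a1 at 285 ± 15.7. The difference between Hspd1 and Eif4a1 was smaller than their spread over libraries. The lowest per kilobase was Wdr12 at 7.13 ± 0.588, and Polr1a at 12.1 ± 0.81 and Polr1b at 12.5 ± 0.458 did not differ beyond their spread. The median over members was 48.1 CPM per kb. The members' CPM summed to 14345 ± 451 in SCR, 14422 ± 159 with shEya3_KD1 and 13805 ± 609 with shEya3_KD2, and these ranges overlapped.

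In all, 6 members were lower with both hairpins: Pa2g4, Fbl, Dkc1, Bop1, Cdk4 and Tfrc. None was higher with both, and 1, Eif4e, was higher with shEya3_KD1 and lower with shEya3_KD2. With shEya3_KD1 alone past the test, 4 were higher (Npm1, Gar1, Cad and Ppat) and 3 lower (Nolc1, Utp20 and Nop2). With shEya3_KD2, 5 more were higher (Ncl, Polr1a, Nop56, Heatr1 and Nop14) and 8 more lower (Nop58, Imp4, Pes1, Wdr12, Nop16, Mrto4, Nme1 and Hspe1). The remaining 14 passed the test with neither hairpin. Over all genes tested, 26.2% were lower with shEya3_KD1 and 22.3% with shEya3_KD2. The share of all genes lower with both was not computed, so the 6 members cannot be set against a background. The calls on the 6 genes lower with both hairpins and on Eif4e held in all 17 alternative settings tried, including each library left out in turn. On mm10, the 7 genes lie at chr10:128557766-128565987 (Pa2g4), chr7:28169710-28179269 (Fbl), chrX:75095854-75109777 (Dkc1), chr15:76452989-76477277 (Bop1), chr10:127063534-127067920 (Cdk4), chr16:32608920-32632794 (Tfrc) and chr3:138526179-138559696 (Eif4e), by the GENCODE M21 annotation.

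**Figure D2:**
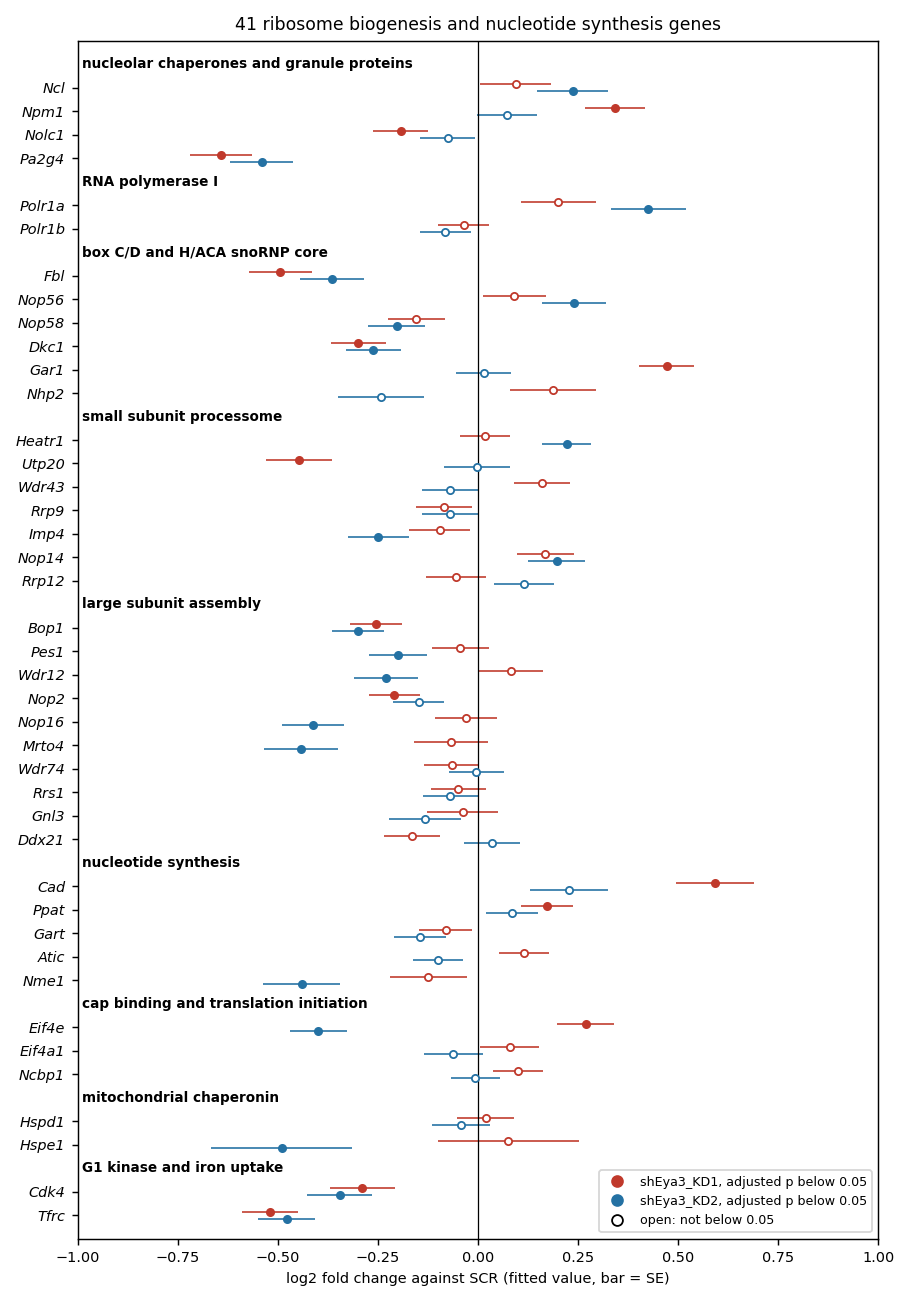
Log2 fold change against SCR (x axis, bar = SE) of each of the 41 members, grouped by role, for shEya3_KD1 (red) and shEya3_KD2 (blue). Filled points passed the adjusted p of 0.05, and the 6 genes lower with both hairpins have both points filled to the left of 0.

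Among the nucleolar chaperones and granule proteins, Pa2g4 had the largest fall of any member. Pa2g4 encodes a growth-regulating protein that binds ribosomes and is also known as Ebp1. Its level was 742, 647 and 714 CPM in SCR replicates 1 to 3, 461, 455 and 431 with shEya3_KD1 and 521, 438 and 486 with shEya3_KD2. All 6 knockdown libraries were below all SCR libraries. The log2 fold changes were -0.64 ± 0.08, adjusted p = 5.89e-06, and -0.54 ± 0.08, adjusted p = 5.5e-05, and the hairpins did not differ by the test (0.10 ± 0.08, adjusted p = 0.298). Npm1, the nucleolar chaperone nucleophosmin, read 1946, 1798 and 1857 CPM in SCR, 2218, 2401 and 2478 with shEya3_KD1 and 2029, 1798 and 2066 with shEya3_KD2. Its shEya3_KD1 libraries lay above all others, while the shEya3_KD2 libraries overlapped SCR. Npm1 rose with shEya3_KD1 (0.34 ± 0.07, adjusted p = 0.00136), and with shEya3_KD2 the value was 0.07 ± 0.07, adjusted p = 0.452. Ncl, nucleolin, which binds the ribosomal RNA precursor, was called higher with shEya3_KD2 at 0.24 ± 0.09, adjusted p = 0.0424. That call was lost without any 1 of the SCR libraries, shEya3_KD1 replicate 2, or shEya3_KD2 replicate 1 or 2. Nolc1, a chaperone of snoRNPs, fell with shEya3_KD1 (-0.19 ± 0.07, adjusted p = 0.0292), and the call was lost without SCR replicate 1 or 3 or shEya3_KD1 replicate 2 or 3.

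Of the 2 catalytic subunits of RNA polymerase I, Polr1a passed the test, with shEya3_KD2, and Polr1b did not. Polr1a, the largest subunit, was 133, 150.1 and 149 CPM in SCR, 189, 149.5 and 158 with shEya3_KD1 and 191, 213 and 176 with shEya3_KD2. The shEya3_KD2 libraries all exceeded SCR, and the shEya3_KD1 libraries overlapped it. Polr1a rose with shEya3_KD2 (0.42 ± 0.09, adjusted p = 0.00204), and the shEya3_KD1 value of 0.20 ± 0.09, adjusted p = 0.0912, passed the threshold when shEya3_KD2 replicate 2 was left out. Polr1b, the second-largest subunit, was 69.8, 73.8 and 74.8 CPM in SCR, 73.6, 68.1 and 71.3 with shEya3_KD1 and 69.8, 71.5 and 65.2 with shEya3_KD2. All 3 groups overlapped for Polr1b, and it passed the test in neither comparison (-0.04 and -0.08). The difference between the changes of the 2 subunits was not tested.

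Box C/D snoRNPs methylate ribosomal RNA and box H/ACA snoRNPs convert uridine to pseudouridine, and the enzymes of both were lower with both hairpins. Fbl, the methyltransferase fibrillarin, was 237, 205 and 218 CPM in SCR, 159, 163 and 147 with shEya3_KD1 and 189, 164 and 158 with shEya3_KD2. No knockdown library reached the lowest SCR library. Its log2 fold changes were -0.49 ± 0.08, adjusted p = 9.8e-05, and -0.36 ± 0.08, adjusted p = 0.00171. Dkc1, the pseudouridine synthase dyskerin, went from 214 ± 16.5 CPM to 174 ± 7.58 and 179 ± 5.77 (-0.30 ± 0.07, adjusted p = 0.00205, and -0.26 ± 0.07, adjusted p = 0.00624). None of their 4 partners among the members was lower with both hairpins. Gar1, an H/ACA protein, was 68.0, 67.8 and 63.2 CPM in SCR, 94.7, 95.3 and 86.0 with shEya3_KD1 and 70.5, 67.3 and 63.2 with shEya3_KD2. The shEya3_KD1 libraries of Gar1 stood above the other 6, which overlapped. Gar1 rose with shEya3_KD1 (0.47 ± 0.07, adjusted p = 3.49e-05) and differed between the hairpins (-0.46 ± 0.07, adjusted p = 5.79e-05). Nhp2, another H/ACA protein, passed in neither comparison with SCR (0.19 and -0.24) but did between the hairpins (-0.43 ± 0.11, adjusted p = 0.00501). It was called higher with shEya3_KD1 without shEya3_KD2 replicate 2 or with only the 2 groups compared, and lower with shEya3_KD2 in 4 of 17 alternative settings, among them no filter and SCR replicate 2 or shEya3_KD2 replicate 3 left out. Of the C/D scaffold pair, Nop56 was called higher with shEya3_KD2 (0.24 ± 0.08, adjusted p = 0.0227) and Nop58 lower (-0.20 ± 0.07, adjusted p = 0.0305). The Nop56 call was lost without SCR replicate 2 or shEya3_KD2 replicate 1 or 3, with library totals only and with the 5 CPM filter. The Nop58 call was lost without SCR replicate 1 or 3 or shEya3_KD2 replicate 2, and with no filter. With shEya3_KD1 Nop58 was called lower when SCR replicate 2 was left out.

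The small subunit processome is the large particle that assembles on the ribosomal RNA precursor. Its 7 members gave 1 fall with shEya3_KD1, and 2 rises and 1 fall with shEya3_KD2. That is 14.3% and 42.9% called, beside 50.3% and 45.3% of all genes tested. Utp20, a very large scaffold protein, was 211, 238 and 243 CPM in SCR, 183, 156 and 168 with shEya3_KD1 and 232, 249 and 209 with shEya3_KD2. Only the shEya3_KD1 libraries stood apart, below the other 6. Utp20 fell with shEya3_KD1 (-0.45 ± 0.08, adjusted p = 0.000341), was -0.00 ± 0.08 with shEya3_KD2, and differed between the hairpins (0.44 ± 0.08, adjusted p = 0.000426). Imp4, which helps the precursor pair with a snoRNA, was 115, 110.1 and 112 CPM in SCR, 100.4, 106 and 109 with shEya3_KD1 and 97.6, 82.9 and 103 with shEya3_KD2. Every knockdown library of Imp4 was below every SCR library, but only shEya3_KD2 passed the test (-0.25 ± 0.08, adjusted p = 0.0154; -0.10 with shEya3_KD1), and that call was lost without SCR replicate 1 or shEya3_KD2 replicate 2. Heatr1, a scaffold of the processome that also acts in polymerase I transcription, rose with shEya3_KD2 (0.22 ± 0.06, adjusted p = 0.00912), a call lost without SCR replicate 2 or shEya3_KD2 replicate 1. Nop14 was called higher with shEya3_KD2 (0.20 ± 0.07, adjusted p = 0.0361). This call was lost without any 1 SCR library, shEya3_KD1 replicate 2, or shEya3_KD2 replicate 1 or 2. It was also lost with library totals only and with the 5 CPM filter. Nop14 also passed with shEya3_KD1 (0.17) without shEya3_KD1 replicate 3, or shEya3_KD2 replicate 2 or 3. Wdr43, Rrp9 and Rrp12 passed with neither hairpin, with values from -0.08 to 0.16.

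None of the 10 large subunit assembly factors was higher with either hairpin, beside 24.1% and 23.0% of all genes tested. With shEya3_KD1 2 were lower (20%, beside 26.2% of all genes), and with shEya3_KD2 5 (50%, beside 22.3%). Bop1, Pes1 and Wdr12 form a complex needed to process the large subunit RNA. With shEya3_KD2 all of the complex was called lower, Bop1 at -0.30 ± 0.07, adjusted p = 0.00173, Pes1 at -0.20 ± 0.07, adjusted p = 0.033, and Wdr12 at -0.23 ± 0.08, adjusted p = 0.0292. With shEya3_KD1 Bop1 was lower (-0.25 ± 0.07, adjusted p = 0.0044), and Pes1 (-0.04) and Wdr12 (0.08) did not pass. The shEya3_KD2 calls of Pes1 and Wdr12 were lost without SCR replicate 1, SCR replicate 3 or shEya3_KD2 replicate 2. The Pes1 call was also lost with no filter. Mrto4, a nuclear factor related to a protein of the ribosomal stalk, was 153, 139 and 143 CPM in SCR, 125, 139.7 and 150.0 with shEya3_KD1 and 108, 91.8 and 120.1 with shEya3_KD2. Its shEya3_KD2 libraries were the lowest 3 of the 9. Mrto4 fell with shEya3_KD2 (-0.44 ± 0.09, adjusted p = 0.00136) and was lower than with shEya3_KD1 (-0.38 ± 0.09, adjusted p = 0.00377). Nop16, a nucleolar protein of large subunit precursors, was 81.3, 74.9 and 78.3 CPM in SCR, 71.5, 78.8 and 79.3 with shEya3_KD1 and 62.5, 52.0 and 61.5 with shEya3_KD2. As for Mrto4, the shEya3_KD2 libraries were below all others (-0.41 ± 0.08, adjusted p = 0.000556 against SCR, and -0.38 ± 0.08, adjusted p = 0.000881 against shEya3_KD1). Nop2, an RNA methyltransferase, fell with shEya3_KD1 (-0.21 ± 0.06, adjusted p = 0.0136), a call lost without SCR replicate 1 or 3. Wdr74, Rrs1, Gnl3 and Ddx21 passed with neither hairpin, with values from -0.17 to 0.03. Ddx21, an RNA helicase, was called lower with shEya3_KD1 in 6 of 17 alternative settings, among them DESeq2, library totals only, the 5 CPM filter, the length trend removed and shEya3_KD1 replicate 1 left out.

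Of the 5 nucleotide synthesis genes, 2 were higher and none lower with shEya3_KD1, beside 24.1% and 26.2% of all genes tested. Cad carries the first 3 steps of pyrimidine synthesis in 1 protein. It was 348, 416 and 418 CPM in SCR, 673, 537 and 571 with shEya3_KD1 and 477, 489.9 and 418 with shEya3_KD2. The shEya3_KD1 libraries were above all others, and 1 of the shEya3_KD2 libraries lay within the SCR range. Cad had the largest rise of any member (0.59 ± 0.10, adjusted p = 0.00014), was 0.23 ± 0.10, adjusted p = 0.0704, with shEya3_KD2, and differed between hairpins (-0.36 ± 0.10, adjusted p = 0.00658). The shEya3_KD2 value passed the test without shEya3_KD1 replicate 1 or shEya3_KD2 replicate 3. Ppat, which commits the cell to purine synthesis, rose with shEya3_KD1 (0.17 ± 0.06, adjusted p = 0.0375). The call was lost without SCR replicate 2 or 3, shEya3_KD1 replicate 1 or 2, or shEya3_KD2 replicate 1. It was also lost with library totals only and with no filter. The later purine enzymes Gart and Atic passed with neither hairpin (-0.08 and -0.15 for Gart, 0.11 and -0.10 for Atic). Nme1, a kinase that makes nucleoside triphosphates, was 68.0, 62.2 and 61.7 CPM in SCR, 50.5, 62.2 and 63.3 with shEya3_KD1 and 49.97, 40.9 and 50.1 with shEya3_KD2. The shEya3_KD2 libraries were the lowest of the 9, and Nme1 fell there (-0.44 ± 0.10, adjusted p = 0.00195). Reads of Nme1 may be split with its close paralog Nme2, depending on the authors' counting.

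Eif4e, the protein that binds the cap of messenger RNAs at the start of translation, changed in opposite directions with the 2 hairpins. It was 178, 163 and 172 CPM in SCR, 199, 208 and 211 with shEya3_KD1 and 127, 119 and 142 with shEya3_KD2. The 3 groups did not overlap: shEya3_KD1 was highest, SCR between and shEya3_KD2 lowest. The log2 fold changes were 0.27 ± 0.07, adjusted p = 0.00543, and -0.40 ± 0.07, adjusted p = 0.000375, and the difference between the hairpins was -0.67 ± 0.07, adjusted p = 2.08e-06. Ncbp1, the large subunit of the nuclear cap-binding complex, was 138, 131 and 131 CPM in SCR, 148, 143 and 137 with shEya3_KD1 and 139, 131 and 129 with shEya3_KD2. Its groups overlapped and neither comparison passed (0.10 and -0.01), nor did Eif4a1, the helicase of the cap-binding complex (0.08 and -0.06).

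Hspd1 and Hspe1 encode the chaperonin and its lid, which fold proteins in mitochondria, and they are transcribed from 1 shared region in opposite directions. Their annotated 5′ ends overlap by 112 bases. Hspd1 was 775, 769 and 742 CPM in SCR, 792, 794 and 729 with shEya3_KD1 and 773, 772 and 673 with shEya3_KD2, with all groups overlapping (0.02 and -0.04, neither called). Hspe1 was 252, 266 and 241 CPM in SCR, 217, 262 and 322 with shEya3_KD1 and 163, 147 and 231 with shEya3_KD2. Its shEya3_KD2 libraries were below SCR, and its SE was the widest of the members. Hspe1 passed with shEya3_KD2 by a narrow margin (-0.49 ± 0.18, adjusted p = 0.0458). This call was lost without any 1 SCR library or shEya3_KD2 replicate 1 or 2, and with no filter. Hspd1 has a processed copy, Hspd1-ps3, with counts equal to 5.51% of its own.

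Cdk4, the kinase that drives cells through the G1 phase, and Tfrc, the transferrin receptor that takes up iron, were lower with both hairpins. Cdk4 was 669, 611 and 636 CPM in SCR, 479.9, 539 and 551 with shEya3_KD1 and 525, 449.9 and 533 with shEya3_KD2. Tfrc was 685, 634 and 655 CPM in SCR, 440.2, 459 and 479 with shEya3_KD1 and 489, 435 and 493 with shEya3_KD2. For both genes every knockdown library was below every SCR library, and the hairpins overlapped each other. The log2 fold changes of Cdk4 were -0.29 ± 0.08, adjusted p = 0.00737, and -0.35 ± 0.08, adjusted p = 0.00272. Those of Tfrc were -0.52 ± 0.07, adjusted p = 1.82e-05, and -0.48 ± 0.07, adjusted p = 6.66e-05. Cdk4 overlaps Tspan31 on the opposite strand by 641 bases, and since the strand setting of the counting is not given, some of its reads may come from that gene.

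**Figure D3:**
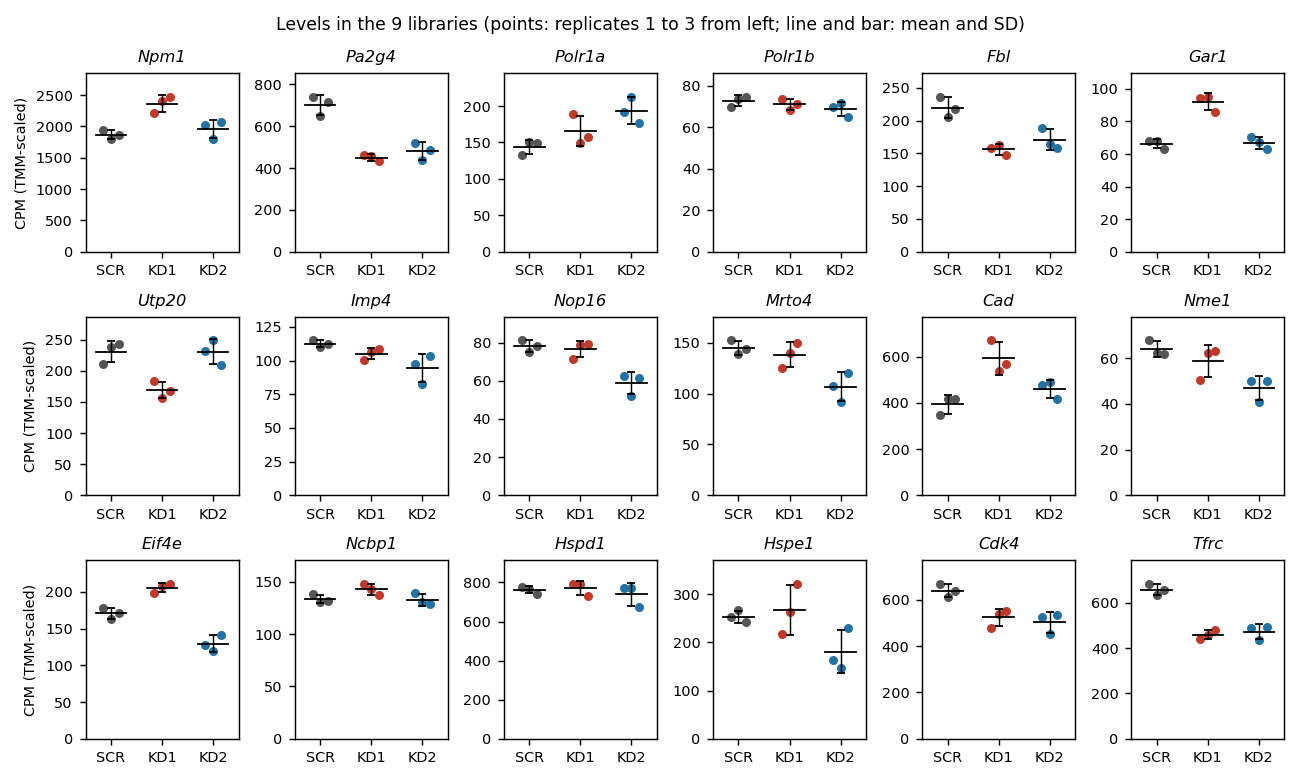
CPM (y axis, linear from 0) of the 18 members with the largest changes of their role in each of the 9 libraries, by group (x axis). Points are replicates 1 to 3 from left, lines and bars the mean and SD (n = 3); for Eif4e the 3 groups are separate, and for Pa2g4, Fbl, Cdk4 and Tfrc both knockdown groups lie below SCR.

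Set against each other directly, the hairpins differed for 15 members, 36.6%, with 3 higher and 12 lower in shEya3_KD2 than in shEya3_KD1. Over all genes 27% were higher and 22.5% lower, 49.6% in all. The median log2 difference of the members was -0.06, and single members ran from -0.67 for Eif4e to 0.44 for Utp20. Higher were Heatr1, Utp20 and Ddx21. Lower were Npm1, Gar1, Nhp2, Wdr43, Wdr12, Nop16, Mrto4, Cad, Atic, Nme1, Eif4e and Hspe1. The count of 3 higher became 6 without shEya3_KD1 replicate 1, 5 without shEya3_KD2 replicate 2 and 1 without shEya3_KD2 replicate 1. Single calls lost were Heatr1 without shEya3_KD2 replicate 1, Wdr43 without shEya3_KD1 or shEya3_KD2 replicate 2, Ddx21 without shEya3_KD1 replicate 2 or 3 or shEya3_KD2 replicate 1, Atic without shEya3_KD1 replicate 2, Nme1 without shEya3_KD1 replicate 2 or 3, and Hspe1 without shEya3_KD1 replicate 3 or shEya3_KD2 replicate 1 or 2. Calls gained were Ncl and Polr1a without shEya3_KD1 replicate 1, Polr1a and Imp4 without shEya3_KD2 replicate 3, Nop56 without shEya3_KD2 replicate 2, and Rrp12 without shEya3_KD1 replicate 1 or shEya3_KD2 replicate 2. None of the 6 genes lower with both hairpins differed between them by the test, with values from -0.06 for Cdk4 to 0.13 for Fbl.

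The shEya3_KD2 values moved with merged exon length, the bases covered by any annotated exon of a gene, which is not the length of a transcript. Spearman's rho of log2 fold change with merged exon length was 0.23 over the 41 members and 0.37 over 3677 genes of at least their level, beside -0.01 and 0.02 with shEya3_KD1; these are descriptions across genes that share the same libraries. The 5 members called higher with shEya3_KD2 had a median exon length of 7828 bases and the 15 called lower one of 3342 bases. Without shEya3_KD2 replicate 2, the shallowest library, rho was 0.20 over the members and 0.27 over the 3677 genes. Without shEya3_KD2 replicate 3 it was 0.27 over the members and 0.42 over the 3677 genes. When the trend on length was removed within each library, an alternative chosen after the data had been seen, 3 members were higher and 18 lower with shEya3_KD2, and 8 higher and 10 lower with shEya3_KD1. Heatr1, Ncl and Hspe1 then lost their shEya3_KD2 calls, Polr1b, Utp20, Gart and Atic were called lower, and the 6 genes lower with both hairpins kept theirs.

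**Figure D4:**
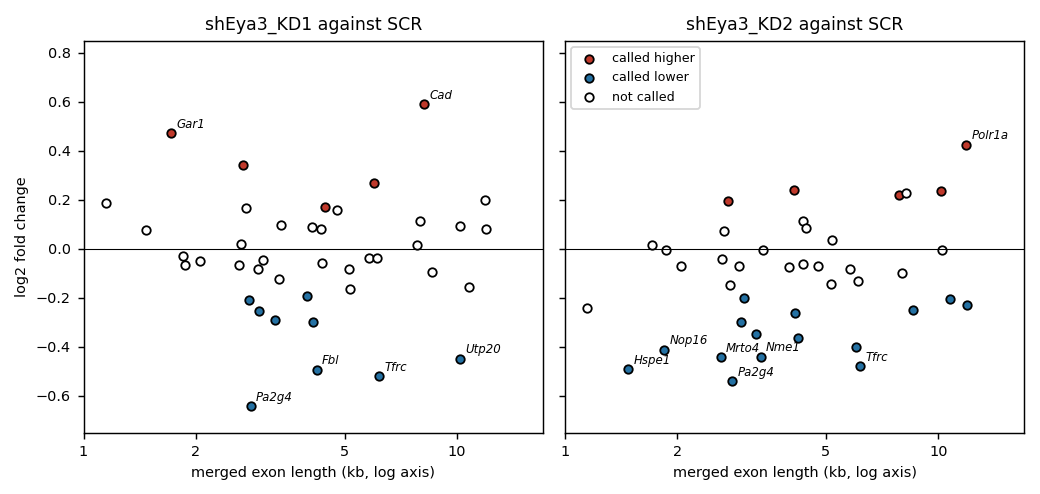
Log2 fold change against SCR (y axis) of the 41 members by merged exon length in kb (x axis, log scale) for each hairpin, with members called higher in red, lower in blue and not called open. Members beyond 0.4 on the log2 scale are named; the called rises with shEya3_KD2 have a median length of 7828 bases and the falls one of 3342 bases.

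Myc itself was higher with shEya3_KD2. It was 186, 192 and 189 CPM in SCR, 210.3, 209.9 and 183 with shEya3_KD1 and 274, 276 and 256 with shEya3_KD2. The shEya3_KD2 libraries were above the other 6, which overlapped. Myc rose with shEya3_KD2 (0.51 ± 0.07, adjusted p = 2.97e-05), the group in which 15 members were lower and 5 higher, and with shEya3_KD1 it was 0.09 ± 0.07, adjusted p = 0.282. Max, its DNA-binding partner, passed with neither hairpin (0.03 and 0.01). Mnt, a repressor that competes for Max, rose with shEya3_KD2 (0.62 ± 0.09, adjusted p = 3.97e-05), and Mlx, the partner of the Mlxip branch of the network, fell there (-0.47 ± 0.11, adjusted p = 0.00259). With shEya3_KD1 Mycn was called lower (-1.03 ± 0.27), at a low level of 0.898 CPM in SCR and 0.436 CPM there. Mlxip was called higher with shEya3_KD1 (0.45 ± 0.10). With shEya3_KD2 neither Mycn nor Mlxip passed (-0.62 and 0.07). Of the 11 network genes tested, 1 was higher and 2 lower with shEya3_KD1, and 4 higher and 1 lower with shEya3_KD2. Over all genes tested, 24.1% were higher and 26.2% lower with shEya3_KD1, and 23.0% and 22.3% with shEya3_KD2.

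Promoter windows of 250 bases before to 50 after each RefSeq start (GRCm38.p6) were searched for the E-box CACGTG, which reads the same on both strands, and for the variant CACGCG or its reverse CGCGTG. Of the 36 members with a window, 11 (30.6%) held CACGTG, beside 11.4% of 10191 tested genes and 8.09% of all 27025 genes in the table. CACGCG stood in 10 of the 36 (27.8%), beside 19.5% of tested genes and 10.5% of all genes. The 11 were Imp4, Hspd1, Atic, Eif4e, Nop2, Utp20, Cdk4, Pes1, Eif4a1, Nme1 and Wdr43. Rrs1, Fbl, Rrp12, Bop1 and Npm1 were not searched. Eif4e, Nme1 and Hspd1 each have a further window that is not printed. Those of Eif4e and Hspd1 hold no CACGTG, and that of Nme1 holds 1. The windows of 5 members are printed 5′ to 3′ on the gene's strand, with each CACGTG in capitals: Cdk4 (chr10:127063285-127063584, plus strand) for its 4 E-boxes and its fall with both hairpins, Eif4e (chr3:138527018-138527317, plus strand) for its opposite changes, Nme1 (chr11:93968223-93968522, minus strand) for an E-box close to the start and its fall with shEya3_KD2, and the facing pair Hspd1 (chr1:55088194-55088493, minus strand) and Hspe1 (chr1:55087898-55088197, plus strand), of which only the Hspd1 window holds the motif.
Cdk4: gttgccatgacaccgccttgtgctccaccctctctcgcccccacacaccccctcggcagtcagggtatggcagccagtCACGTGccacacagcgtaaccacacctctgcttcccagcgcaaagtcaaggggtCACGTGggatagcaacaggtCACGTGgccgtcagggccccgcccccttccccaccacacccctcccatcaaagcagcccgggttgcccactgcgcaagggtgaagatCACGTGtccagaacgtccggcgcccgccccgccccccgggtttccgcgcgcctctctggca
Eif4e: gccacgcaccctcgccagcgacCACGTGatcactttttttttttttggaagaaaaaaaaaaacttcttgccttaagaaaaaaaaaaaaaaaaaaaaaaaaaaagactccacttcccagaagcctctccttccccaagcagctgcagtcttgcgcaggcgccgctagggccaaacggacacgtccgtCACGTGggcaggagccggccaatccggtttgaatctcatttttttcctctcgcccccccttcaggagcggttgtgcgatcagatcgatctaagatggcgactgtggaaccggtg
Nme1: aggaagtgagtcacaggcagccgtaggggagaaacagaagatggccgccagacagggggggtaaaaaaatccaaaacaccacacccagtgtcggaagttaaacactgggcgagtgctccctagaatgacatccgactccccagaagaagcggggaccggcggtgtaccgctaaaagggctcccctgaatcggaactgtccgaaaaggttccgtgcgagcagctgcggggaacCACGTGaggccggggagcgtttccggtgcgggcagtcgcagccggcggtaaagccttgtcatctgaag
Hspd1: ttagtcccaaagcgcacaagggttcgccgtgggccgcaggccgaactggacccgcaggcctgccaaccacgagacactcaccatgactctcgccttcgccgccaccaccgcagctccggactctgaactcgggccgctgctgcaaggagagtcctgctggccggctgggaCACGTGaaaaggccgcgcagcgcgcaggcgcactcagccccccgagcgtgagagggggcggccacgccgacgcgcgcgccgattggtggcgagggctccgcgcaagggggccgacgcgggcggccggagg
Hspe1: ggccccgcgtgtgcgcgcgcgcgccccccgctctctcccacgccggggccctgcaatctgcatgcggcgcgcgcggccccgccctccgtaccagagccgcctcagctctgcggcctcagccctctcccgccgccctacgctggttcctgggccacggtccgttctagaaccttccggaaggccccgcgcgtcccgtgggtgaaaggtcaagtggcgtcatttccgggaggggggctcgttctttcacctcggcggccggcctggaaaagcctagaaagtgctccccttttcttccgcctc

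In Cdk4 the 4 E-boxes began at positions -172, -118, -98 and -11 (the base before the start is -1), in Eif4e the 2 began at -228 and -64, and in Nme1 1 began at -18. The 11 members with CACGTG included 1 called higher and 3 lower with shEya3_KD1, and 0 higher and 5 lower with shEya3_KD2 (median log2 fold changes -0.04 and -0.15). The 25 without it included 3 higher and 4 lower, and 5 higher and 8 lower (medians -0.03 and -0.08). All genes tested were 24.1% higher and 26.2% lower with shEya3_KD1, and 23.0% and 22.3% with shEya3_KD2. The difference between members with and without the motif was not tested. A match is a description of the letters in the window and shows no binding.

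Of the members, 7 also host snoRNA genes, the guides of ribosomal RNA modification: Ncl, Nop56, Nop58, Dkc1, Wdr43, Gnl3 and Eif4a1. That is 17.1% of the 41, beside 1.89% of 12042 protein-coding genes tested (228 hosts). With shEya3_KD1, 0 hosts were higher and 1 lower, beside 24.1% and 26.2% of all genes tested. With shEya3_KD2 2 were higher and 2 lower, beside 23.0% and 22.3%. The medians of the hosts were 0.08 and -0.07, and those of the 34 other members -0.05 and -0.09. The snoRNAs themselves were not analysed here. The members Bop1, Cdk4, Gart, Heatr1, Ncbp1 and Rrp9 share more than 500 bases with a tested gene on the opposite strand. These bases are of the annotated span, introns included. Their reads may include those of the partner, by at most a small part where it is low. In SCR, Gm15964 was 0.366 CPM beside 264 for Gart, and Xpa 5.22 beside 133 for Ncbp1. Scx was 19.5 beside 206 for Bop1, and Tspan31 135 beside 639 for Cdk4. Lgals8 was 83.1 beside 189 for Heatr1, and Parp3 56.8 beside 106 for Rrp9.

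Other genes of the same steps, 182 in all with the Myc network, were also mixed. Of these, 44 were higher and 41 lower with shEya3_KD1, and 34 higher and 42 lower with shEya3_KD2. Over all genes tested, 24.1% were higher and 26.2% lower with shEya3_KD1, and 23.0% and 22.3% with shEya3_KD2. These shares are the background for the counts of each list below. Of 19 polymerase I subunits and ribosomal DNA factors, 2 were higher and 7 lower with shEya3_KD1 (median -0.13) and 2 higher and 5 lower with shEya3_KD2 (median -0.13). The largest fall was in Polr2e, a subunit shared by the 3 nuclear RNA polymerases, from 209 ± 7.29 to 91.6 ± 8.43 and 120.5 ± 19.4 CPM (-1.19 ± 0.10, adjusted p = 2.64e-07, and -0.79 ± 0.10, adjusted p = 2.61e-05). Of 11 further snoRNP and assembly factors, 2 were higher and 2 lower with shEya3_KD1, and 1 higher and 3 lower with shEya3_KD2. Rpap3, of the chaperone complex that assembles snoRNPs, fell with both (-0.56 and -0.49), and Naf1, an H/ACA assembly factor that Gar1 replaces, rose with both (0.33 and 0.41). Of 44 other small subunit factors, 10 were higher and 5 lower with shEya3_KD1, and 6 higher and 8 lower with shEya3_KD2. Within that list Pwp2 fell with both (-0.89 and -0.47), and Imp3, a partner of Imp4, rose with both (0.35 and 0.27).

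Of 50 other large subunit factors, 13 were higher and 17 lower with shEya3_KD1, and 5 higher and 14 lower with shEya3_KD2. Rrp1 fell with both hairpins (-0.86 and -0.28) and the helicase Ddx24 rose with both (0.38 and 0.78), while Nmd3, the adaptor that exports the large subunit, fell with shEya3_KD2 (-0.68) and was -0.01 with shEya3_KD1. Among 28 other nucleotide synthesis enzymes, 11 were higher and 6 lower with shEya3_KD1, and 9 higher and 7 lower with shEya3_KD2. Adss, which leads to AMP, rose with both (0.91 and 0.48). Of 19 other initiation factors, 5 were higher and 2 lower with shEya3_KD1, and 7 higher and 4 lower with shEya3_KD2. The largest change in these lists was in Eif4g3, a scaffold that joins Eif4e to the ribosome, which was 39.9, 44.7 and 47.8 CPM in SCR, 234, 200.1 and 204 with shEya3_KD1 and 193, 223 and 173 with shEya3_KD2. Every knockdown library of Eif4g3 was above every SCR library (2.27 ± 0.10, adjusted p = 1.77e-10, and 2.16 ± 0.10, adjusted p = 1.33e-09).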

How the data were processed

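Messenger RNA libraries (NuGEN Universal Plus mRNA-Seq) were prepared from RNeasy extracts, per the labels' protocols. Per the submitters' processing notes, reads were handled with FastQC, MultiQC and STAR on mm10, with no version stated. Which program counted the reads, on which annotation and with which strand option is, likewise, not given in the sources used here. Raw read counts per gene symbol, whole numbers in all 9 columns, were used as deposited. Each column matched 1 sample title, and 0 columns were left without a sample.

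Genes were kept by filterByExpr, scaled with TMM and tested in 1 quasi-likelihood fit over all 9 libraries with the group as the only term (R 4.3.3, edgeR 4.0.16, robust estimation), with Benjamini-Hochberg adjustment over all 15914 genes and a threshold of 0.05. The SE is the log2 fold change divided by the square root of F. An exact permutation test of 3 libraries against 3 has a smallest p of 0.1, and all p-values given come from the model. Medians by library used log2(CPM + 0.5). Exon lengths, overlaps and coordinates came from GENCODE M21 (mm10), and promoter windows from RefSeq (GRCm38.p6).

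The members and gene lists were chosen with earlier results of these data known. Values in every library are given for the 2 members of each role with the largest change against SCR, and other genes were named as the called gene with the largest rise or fall of its list. Alternatives were RLE size factors, library totals only, DESeq2 1.42.0, only the groups compared, no filter, at least 5 CPM in 3 libraries, a replicate block, each library left out, and removal of the length trend. Chi-square per degree of freedom was at least 9.24 for each replicate pair, so none was counted as a repeat of another.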

Additional observations from a re-analysis of the deposited data

Results flagged for a closer look

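Eif4e changed in opposite directions with the 2 hairpins, and the difference between them itself passed the test. It was 171 ± 7.74 CPM (SD, n = 3) in SCR, 206 ± 6.51 with shEya3_KD1 and 129.5 ± 11.4 with shEya3_KD2, so that shEya3_KD2 was -0.67 on the log2 scale against shEya3_KD1 (adjusted p = 2.08e-06 by edgeR). Each shEya3_KD1 library was above, and each shEya3_KD2 library below, all SCR libraries. Over the 17 alternative settings this difference ran from -0.74 to -0.61, with adjusted p from 4.48e-17 to 5.19e-05. Groups of 3 libraries are too small for a search for single outlying libraries.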

How the results depend on the processing

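No called value of a member changed sign in any of the 17 alternative settings. Of the member calls, 11 of 14 with shEya3_KD1, 11 of 20 with shEya3_KD2 and 9 of 15 between the hairpins held in every setting. The median of the members with shEya3_KD1 was -0.059 with library totals only. With shEya3_KD2 it was -0.13 with library totals only and -0.15 with the length trend removed, and between the hairpins -0.11 with the length trend removed. Members higher with shEya3_KD1 numbered 9 with only the 2 groups compared and 8 with the length trend removed. Members higher with shEya3_KD2 numbered 2 with library totals only, 2 with the 5 CPM filter and 3 with the length trend removed, which left 1 higher between the hairpins. With each library left out in turn, members numbered 4 to 8 higher and 7 to 10 lower with shEya3_KD1 (median -0.073 to -0.0078), 1 to 6 and 10 to 16 with shEya3_KD2 (-0.12 to -0.06), and 1 to 6 and 9 to 13 between the hairpins (-0.08 to -0.00). Ribosomal proteins lower with shEya3_KD1 numbered 2 without a filter, 2 with only the 2 groups and 3 without the length trend, and 53 were higher with only the 2 groups. Those higher with shEya3_KD2 numbered 3 with library totals only, with the 5 CPM filter and with only the 2 groups, and 16 without the length trend. Leaving out libraries gave 23 to 51 higher and 0 to 2 lower ribosomal proteins with shEya3_KD1, 2 to 6 and 8 to 41 with shEya3_KD2, and 0 to 0 and 31 to 73 between the hairpins. The scaling alternatives moved the median of all genes by less than 0.1.

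Replicate numbers are shared between groups, but same-numbered libraries did not deviate together (correlations -0.108 to 0.196), so the numbers were not taken to pair the samples. With the replicate block 5 members were higher and 10 lower with shEya3_KD1, 5 and 16 with shEya3_KD2, and 3 and 12 between the hairpins. The added calls of the block were Ddx21, lower with shEya3_KD1, and Nhp2, lower with shEya3_KD2, and it changed no other member's call. The cause of the changed calls was not tested.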

Other observations

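The cytosolic ribosomal proteins, the structural parts of the ribosome that the members help to build, are the gene group next to these. Of 87 tested, with a median of 781 CPM in SCR, 35 were higher and 1, Rps15, lower with shEya3_KD1 (median log2 fold change 0.23), and 5 were higher and 11 lower with shEya3_KD2 (median -0.12). Between the hairpins 0 were higher and 46 lower in shEya3_KD2 by edgeR's quasi-likelihood test (median -0.33). The 35 higher with shEya3_KD1 were 40.2% of those tested, beside 24.1% of all genes, and 26.2% of all genes were lower there. With shEya3_KD2 5.75% were higher and 12.6% lower, both smaller shares than the 23.0% and 22.3% of all genes. The 46 lower between the hairpins were 52.9%, beside 22.5% of all genes lower and 27% higher. Rps15 is named after its value was seen. The 35 became 23 without SCR replicate 3 or shEya3_KD1 replicate 3, and the 11 became 41 without shEya3_KD2 replicate 3. The 5 became 2 without SCR replicate 2 or 3 or shEya3_KD2 replicate 1, and 3 without shEya3_KD1 replicate 2, while the 1 lower became 0 without SCR or shEya3_KD1 replicate 1 and 2 without shEya3_KD1 replicate 3 or shEya3_KD2 replicate 2 or 3. Without shEya3_KD2 replicate 2 the shEya3_KD2 median was -0.00, and the 46 became 73 without shEya3_KD2 replicate 3. The median merged exon length of these genes was 1726 bases. With the length trend removed 16 were higher and 10 lower with shEya3_KD2, and 41 lower between the hairpins. Many have near-identical processed copies in the genome, among which the authors' counting may have split reads.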
